A study of Taeniopygia guttata with 5 samples.

Results

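Genes of chromatin regulators and histones in RNA-Seq of zebra finch brain were taken by symbol from the union of the 4 deposited tables, and are called members below. The symbols were those of the deacetylase (HDAC), demethylase (KDM, JMJD), remodeler (SMARC, CHD, BAZ, ARID), methyltransferase (SETD, MLL, EZH, SUZ), reader (PHF, CBX, BRD, ING, MBD), coactivator (NCOA, EP300), corepressor (SIN3, NCOR, SAP18), DNA methyltransferase (DNMT) and histone families. The rule found 38 genes, each with 1 transcript, among 4675 listed transcripts. They were 6 deacetylases and corepressors, 4 coactivators and acetyltransferases, 3 demethylases, 9 methyltransferases and MLL fusion partners, 5 remodelers, 6 readers and 5 histones. Each table lists only 1800 transcripts, those ranked first by p-value among the 10859 to 11507 that the authors tested in a comparison, so a gene is present here because it came out near the top of at least 1 comparison. Of the 38 genes, 28 were listed in 1 table, 9 in 2 tables and 1, SMARCA4, in 3 tables. Counts in all 5 libraries existed for 6 genes: CBX1, CHD7, H2AFZ, HDAC9, PHF15 and SMARCA4.

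Chromatin regulators are the proteins that write, erase and read chemical marks on histones and that move or exchange nucleosomes, and histones are the spools around which DNA is wound. Acetyltransferases and coactivators open chromatin for transcription, deacetylases and their corepressors close it, methyltransferases and demethylases set and remove methyl marks, readers bind these marks, and remodelers slide or evict nucleosomes with energy from ATP. In neurons this machinery takes part in activity-dependent transcription and in the closing of developmental windows. It was examined here in HVC, a forebrain nucleus of the song control circuit of the zebra finch (Taeniopygia guttata), and in whole brain.

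The libraries were 1 of HVC at 100 d, 2 of HVC at 45 d, 1 of whole brain at 100 d and 1 of whole brain at 45 d, all from unmanipulated males of a breeding colony that had neither sung nor heard song shortly before collection. Birds of 45 d were juveniles still housed with their parents, and birds of 100 d were young adults kept in groups after separation from them. Each HVC library pooled RNA of 4 birds and each whole brain library RNA of 2. HVC was cut from sagittal sections, and the dissections may hold part of the ventricular zone that lies on top of the nucleus. Which of the 45 d HVC libraries, R92L1 and R92L2, is the first replicate is not stated. Neither the labels nor the methods say that different birds went into them, and the spread between them, on which the p-values of the fits with both libraries rest, may therefore be technical. HVC and whole brain libraries carry different run numbers (92 and 81), so tissue and run cannot be told apart. In bulk RNA, fewer cells of a type and less RNA per cell cannot be told apart either.

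Listed reads summed to between 495316 and 1014565 per library. In HVC the relative library size was 1 at 100 d and 0.908 (R92L1) and 1.09 (R92L2) at 45 d, and in whole brain it was 1.51 at 100 d and 1.81 at 45 d. Reads divided by these sizes are called scaled reads below. Fold changes are log2 values with a standard error (SE) from edgeR's quasi-likelihood test, and a gene was called at a Benjamini-Hochberg adjusted p under 0.1. Between the R92L1 and R92L2 libraries the 24 members with at least 20 reads differed by a median of 1.1-fold, against 1.25-fold for 2391 transcripts. CBX1 (5.72-fold), H3F3A (2.25-fold), ARID1A (2.2-fold), PHF11 (1.62-fold) and SMARCA4 (1.61-fold) were over 1.5-fold apart, so their 45 d HVC values are the least certain. Genes of cerebellar granule and Purkinje cells stood far lower in HVC, with summed scaled reads of 324 in HVC against 3474 in whole brain at 100 d, and of 298 and 459 in HVC against 3748 in whole brain at 45 d. Of these genes 5 of 6 were called lower at 100 d (all transcripts, 13.6%) and 7 of 8 at 45 d (24.7%). GABRA6 was at 0 reads in both HVC libraries at 45 d. Only listed markers could be counted, so markers that did not differ may be missing. Genes of myelin were lower as well, at 1395 against 3805 summed scaled reads at 100 d (1 of 3 called lower, all transcripts 13.6%). At 45 d they were at 1582 and 1812 against 3633 (4 of 4 called lower, all transcripts 24.7%). None was at 0 at either age. The choroid plexus gene TTR-1 was at 11 scaled reads in HVC against 823 in whole brain at 100 d, and at 9.92 and 16.5 against 774 at 45 d. The part of these cells in the tissue differences of the chromatin genes was not tested.

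Of all members, PHF15 (also named JADE2), a PHD finger protein that scaffolds an acetyltransferase complex, showed the age difference in HVC with the smallest p-value. It lies on chromosome 13 of taeGut1, from 9970786 to 10031176. The study measured it in other HVC samples by RT-qPCR with the primers below, which are shown because they define the piece of the transcript that was amplified there. The PCR values are not used here.

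PHF15 forward primer: ttgggttcagggaggtt

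PHF15 reverse primer: ccgtggcactggagaaa

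Both primers are 17 bases long, with 9 and 10 G or C bases. The sequencing counts are given per transcript.

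HVC and whole brain at 45 d were compared in 14 members with counts in all 3 libraries. The difference passed the test in 5 of them: SAP18, HDAC11, HDAC9 and CHD7 were lower in HVC, and CBX1 was higher. That is 4 of 14 lower against 24.7% of all 1928 transcripts tested, and 1 of 14 higher against 16.9% (both directions together, 5 of 14 against 41.6%). The median log2 fold change was -0.72 over the members and -0.69 over all transcripts. Both 45 d HVC libraries lay below whole brain for 10 members and above it for 4, with no gene overlapping, where the corresponding shares over all transcripts were 53.8% and 42.1%. Without adjustment, 12 of 14 members had p under 0.05 (all transcripts, 78.3%), and DESeq2 called 0 members and 95 of all transcripts. An exact test in edgeR with the dispersion of the 45 d HVC pair called 4 of the 14 members, and 771 of all transcripts. Of the 5 genes above it did not call CHD7 (exact test adjusted p = 0.133).

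All 3 deacetylase or corepressor genes tested were lower in HVC at 45 d (both HVC libraries below whole brain in 53.8% of all transcripts). They could be tested because of their rank in this same comparison. Their shared direction is therefore no result about the group. SAP18, a subunit of the Sin3 deacetylase complex (chromosome 1, 46597003 to 46599763), had 110 and 180 reads in HVC, against 708 in whole brain. In scaled reads these were 121 and 165 in HVC against 391 in whole brain (log2 fold change -1.45, SE 0.31, edgeR adjusted p = 0.00103). HDAC11, the only class IV deacetylase (chromosome 12, 1109090 to 1128694), had 65 and 92 reads in HVC, against 398 in whole brain. Its scaled reads of 71.6 and 84.5 in HVC stood against 220 in whole brain (log2 fold change -1.49, SE 0.33, edgeR adjusted p = 0.00151). HDAC9, a class IIa deacetylase that shuttles between nucleus and cytoplasm with neuronal activity (chromosome 2, 48998982 to 49135771), had 83 and 96 reads in HVC, against 370 in whole brain. This gave a log2 fold change of -1.19 (SE 0.33, edgeR adjusted p = 0.0174). In all 3 genes the HVC libraries were less than 1.5-fold apart, and whole brain lay above both.

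Measured from the median of all transcripts, which was itself below 0, the log2 values were -0.76 for SAP18, -0.80 for HDAC11, -0.50 for HDAC9 and -0.28 for CHD7. CHD7 therefore stood only slightly outside the general offset at this age. The 4 genes kept their negative sign under each other scaling of the libraries, but none was then called (edgeR adjusted p from 0.121 for HDAC11 to 1 for CHD7). Those scalings raised the median of all transcripts by 0.33 to 0.61 at 45 d and by 0.34 to 0.58 at 100 d.

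CBX1, which encodes a heterochromatin protein that binds methylated histone H3, was the 1 member called higher in HVC at 45 d. Its transcript lies on the unplaced sequence of taeGut1 (124329432 to 124331817), and how reads shared with its close relatives were counted is not given in the sources used here. It had 143 and 30 reads in HVC, against 30 in whole brain (log2 fold change 2.46, SE 0.54, edgeR adjusted p = 0.00144). The scaled reads were 158 (R92L1) and 27.5 (R92L2) in HVC against 16.6 in whole brain, so R92L1 alone carried most of the difference. The SE came mostly from the trend over all transcripts and little from the gap between these HVC libraries. The log2 ratio was 0.73 without R92L1 and 3.25 without R92L2.

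**Figure D1:**
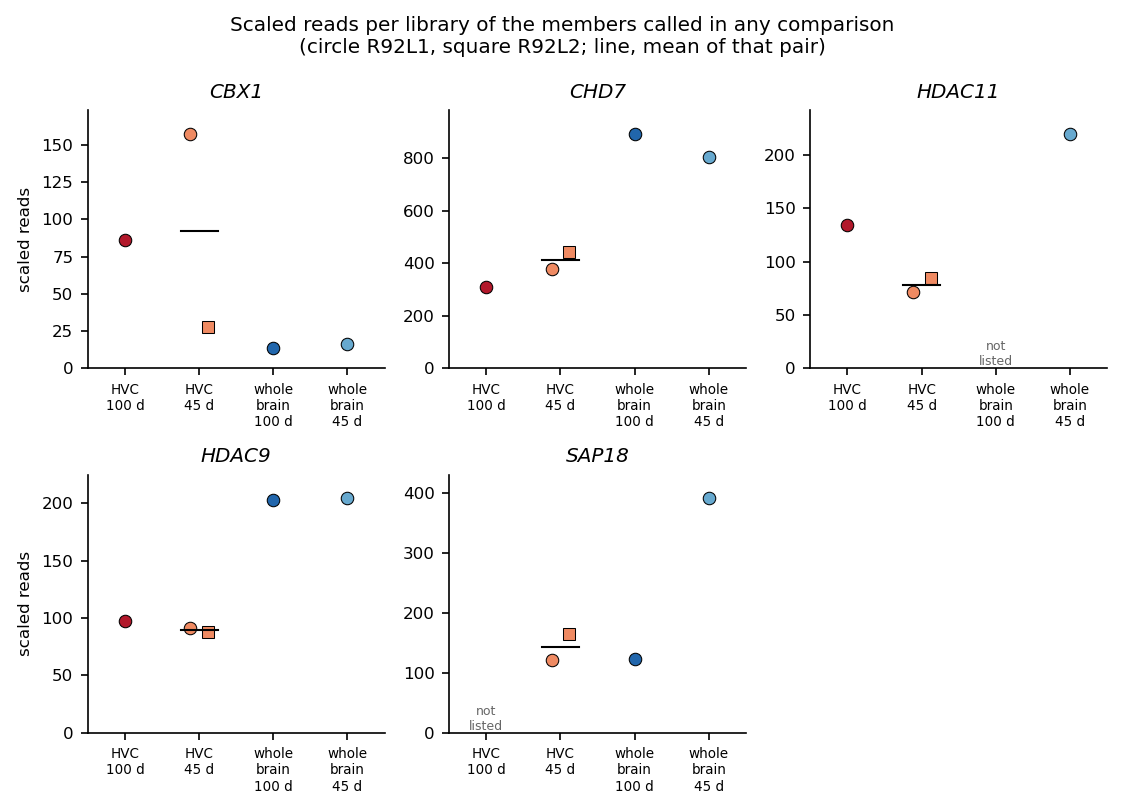
Scaled reads (linear axis, each gene on its own scale) in each library for the 5 members called in any comparison, with HVC in red and whole brain in blue. CHD7 and HDAC9 lie lower in every HVC library than in whole brain, the 2 CBX1 values of HVC at 45 d are 158 and 27.5, and the SAP18 value of whole brain at 45 d (391) stands above all its others.

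Among the 3 remodelers tested at 45 d, 1 passed the test. CHD7, which places and moves nucleosomes at enhancers and whose loss in humans causes CHARGE syndrome (chromosome 2, 119025473 to 119114909), was lower in HVC, with 343 and 483 reads in HVC against 1457 in whole brain (log2 fold change -0.97, SE 0.29, edgeR adjusted p = 0.0321). ARID1A, the DNA-binding subunit of the BAF remodeling complex, had 33 and 18 reads in HVC against 111 in whole brain (-1.23, SE 0.50, edgeR adjusted p = 0.170). SMARCA4, the ATPase of that complex, went the other way with 59 and 44 reads in HVC against 38 in whole brain (1.32, SE 0.53, edgeR adjusted p = 0.166).

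The coactivator tested and the members among the methyltransferases and MLL fusion partners stood near the general offset. SETD8, which places a single methyl group on histone H4, had 125 and 159 reads in HVC against 421 in whole brain (log2 fold change -0.71, SE 0.32). For MLLT3, a reader of acetylated lysine in the elongation machinery, the counts were 104 and 116 reads in HVC against 344 in whole brain (-0.78, SE 0.33). NCOA6, a coactivator of nuclear receptors, had 316 and 380 reads in HVC against 1039 in whole brain (-0.72, SE 0.30). Their adjusted p-values in edgeR lay between 0.177 and 0.264, and each value was within 0.1 of the median of all transcripts.

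PHF11, a PHD finger gene, was at 50 and 37 reads in HVC against 35 in whole brain (log2 fold change 1.19, SE 0.55, edgeR adjusted p = 0.276). The linker histone HIST1H1A-2 had 11 and 5 reads in HVC against 2 in whole brain, a ratio of 7.25 in scaled reads with an exact 95% counting interval of 1.7 to 65.0, which covers counting error only. PHF15 and H2AFZ, the gene of the histone variant H2A.Z, did not pass (log2 fold changes -0.11, SE 0.33, and -0.47, SE 0.30), and the sign of PHF15 at 45 d turned under each other scaling.

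HVC and whole brain at 100 d could be fitted for 6 members, and 2 were called: CBX1 higher and CHD7 lower in HVC. The share was 2 of 6 against 24.3% of 1361 transcripts (1 of 6 higher against 10.7%, 1 of 6 lower against 13.6%). The 45 d HVC pair gave the spread of this fit, since each tissue had 1 library at 100 d. Medians were -0.15 over the members and -0.42 over all transcripts. DESeq2 called 0 members and 33 of all transcripts, and 4 of 6 members had an unadjusted p under 0.05 (all transcripts, 64.3%).

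At 100 d CBX1 had 86 reads in HVC, against 21 in whole brain, or 86 against 13.9 scaled reads (log2 fold change 2.62, SE 0.56, edgeR adjusted p = 0.000533). The adult HVC value thus lay between the 2 juvenile HVC libraries, 158 and 27.5 scaled reads. The gap between those 2 libraries did not enter the SE of CBX1 in this fit. CHD7 had 309 reads in HVC, against 1344 in whole brain, or 309 against 892 scaled reads (log2 fold change -1.53, SE 0.36, edgeR adjusted p = 0.0023). From the median of all transcripts this was a value of -1.11, against -0.28 at 45 d; these 2 comparisons share the 45 d HVC pair in their fits. Both calls at 100 d were lost under each other scaling of the libraries (edgeR adjusted p of 0.138 to 0.261 for CHD7 and 0.155 to 0.317 for CBX1) with the signs kept, and the median over the members then turned to between 0.17 and 0.37. Whether the tissue difference of CHD7 depended on age was tested directly, and the interaction was -0.56 (SE 0.45, unadjusted p = 0.210, edgeR adjusted p = 1).

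HDAC9 and SMARCA4 had similar fold changes at both ages without passing the test at 100 d. HDAC9 had 97 reads in HVC against 305 in whole brain (log2 fold change -1.06, SE 0.43, edgeR adjusted p = 0.287). SMARCA4 had 39 reads in HVC against 19 in whole brain (1.62, SE 0.66, edgeR adjusted p = 0.287). H2AFZ had 470 against 957 reads (-0.43, SE 0.35) and PHF15 364 against 501 reads (0.13, SE 0.37), both at an edgeR adjusted p of 1.

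**Figure D2:**
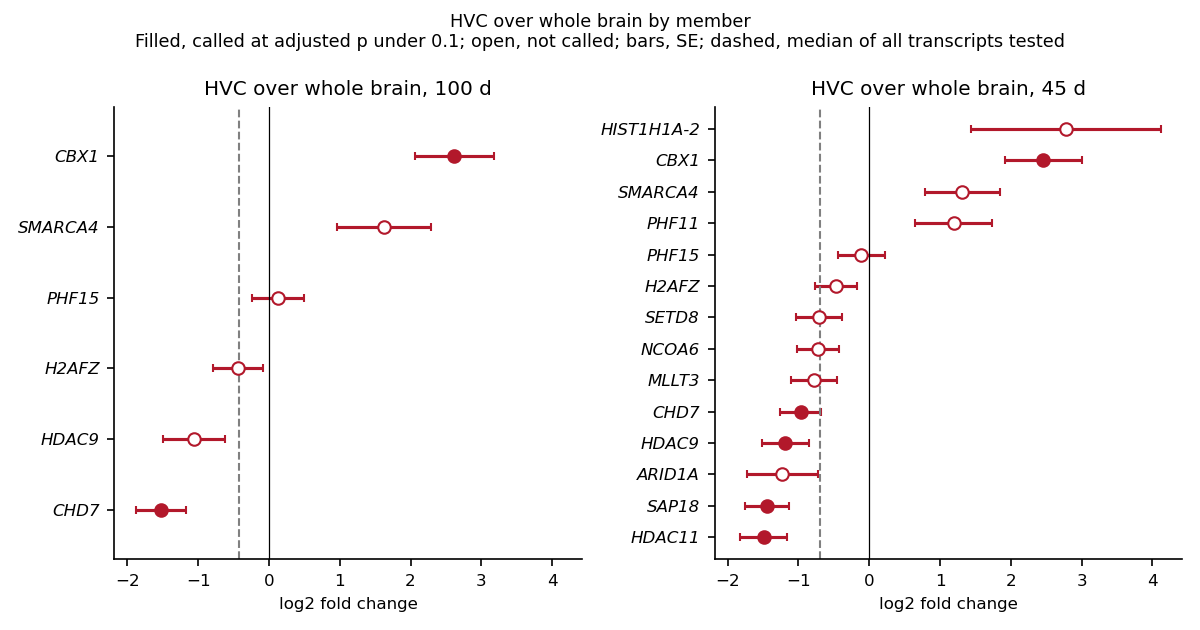
Log2 fold change of HVC over whole brain with its SE for the 6 members fitted at 100 d (left) and the 14 fitted at 45 d (right). Filled points were called, open points were not, and the dashed line is the median of all transcripts tested, -0.42 at 100 d and -0.69 at 45 d.

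The HVC to whole brain calls rested on few libraries. An additive model of tissue and age has 1 tissue effect for both ages and takes 6 members. It is a single fit, and only the number of transcripts adjusted over differs between the ages. Of the members it called CHD7 and HDAC9 alone. Of the 1177 transcripts with counts in all 5 libraries that passed the filter, it called 578 with the adjustment for 45 d and 600 with that for 100 d. CBX1 was not called in it (edgeR adjusted p = 0.386 and 0.365 with these adjustments). Leaving out R92L1 or R92L2 leaves 1 library in each group. Only log2 fold changes are compared for those fits. The calls in them depended on which library was left out, and no conclusion is drawn from them. Without R92L1 they moved little for CHD7 (-1.19, against -1.21 with all libraries) and HDAC9 (-1.14, against -1.13). Neither gene was called without R92L1 at either age, nor was any other transcript in that fit. Whether a call would hold cannot be judged with 1 library in each group. CBX1 had a log2 fold change of 1.69 without R92L1, against 2.52 with all libraries. The log2 fold changes without R92L2 were -1.31 for CHD7, -1.11 for HDAC9 and 2.96 for CBX1. Without R92L2 the calls were 4 of 6 members at each age, namely CBX1, CHD7, HDAC9 and SMARCA4, beside 49.4% of all transcripts at 100 d and 48.1% at 45 d.

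For 5 further members, HVC and whole brain were listed at 100 d without 45 d HVC counts, so they have 1 library on each side and no fit of their own spread. NCOA4, a receptor coactivator that also acts as the cargo receptor for ferritin in autophagy, had 121 reads in HVC against 104 in whole brain, a ratio of 1.75 in scaled reads. CHD1L, a remodeler recruited to DNA damage, had 114 against 94 reads (ratio 1.83). The ratio was 2.20 for MLLT1 (54 against 37 reads), another acetyl-lysine reader of the elongation machinery, and 2.02 for JMJD2B (43 against 32 reads), a demethylase of histone H3. ING5, a PHD finger subunit of acetyltransferase complexes, was the lower one, with 28 against 88 reads (ratio 0.479). With the dispersion of the 45 d HVC pair (0.0478), an exact test in edgeR called none of the 5 (adjusted p 0.461 to 0.697), 2 of the 11 members it could take, and 17.9% of all transcripts. Of the 9 members in the 100 d table, 6 were higher and 3 lower in HVC (all listed transcripts, 47.9% higher), whereas of the 12 members in the 45 d table, 4 were higher and 8 lower (42.9% higher). The tables hold different members, so the 2 splits do not compare the same genes.

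HVC at 100 d and 45 d was compared in 19 members, and 0 were called by edgeR, as were 0% of the 2150 transcripts tested. DESeq2 called 0 members and 2 transcripts, and the exact test 0 members and 35 transcripts (1.63%). Without adjustment, 7 of 19 members had p under 0.05, against 20.6% of all transcripts: PHF15, HDAC11, SETD1B, MLL and MLL5 with higher values at 100 d, and PHF16 and H3F3B with lower values. The 100 d library lay above both 45 d libraries for 13 of 19 members (all transcripts, 45%), below both for 4 (41.9%), and between them for CBX1 and H3F3A. The fold change was positive in 68.4% of the 19 members and in 50.65% of all transcripts. The median log2 fold change was 0.49 over the members and 0.02 over all transcripts. The table of this same comparison lists 16 members, all of them fitted but PHF13, with 13 higher and 3 lower at 100 d (all listed transcripts, 53.6% higher). They are present because of their rank in it, and their values are descriptions of single genes.

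The members tested among the methyltransferases and MLL fusion partners were all present only because of their rank in this same comparison. Their shared direction is therefore no result about the group. MLL (KMT2A), which methylates histone H3 at active promoters and supports memory in mouse neurons (chromosome 24, 199518 to 229642), had 1043 reads at 100 d against 667 and 726 at 45 d. Its log2 fold change was 0.57 (SE 0.24, unadjusted p = 0.0412, edgeR adjusted p = 1). SETD1B, the catalytic subunit of a complex with the same substrate (chromosome 15, 3211309 to 3255074), had 292 reads at 100 d against 163 and 193 at 45 d, or 292 against 180 and 177 scaled reads (0.71, SE 0.27, unadjusted p = 0.0292, edgeR adjusted p = 1). MLL5, a relative of MLL (chromosome 1A, 12831006 to 12870564), had 2006 reads at 100 d against 1294 and 1459 at 45 d (0.54, SE 0.23). MLLT10, a cofactor of the methyltransferase DOT1L, had 539 reads at 100 d against 308 and 467 at 45 d (0.49, SE 0.27). In all 4 the adult library was above both juvenile libraries (all transcripts tested, 45%), without passing the test.

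Both coactivators tested, and the remodeler CHD2, had fold changes of like size. All of them are present only because of their rank in this same comparison. Their like size and shared direction are therefore no result about a group. EP300, a histone acetyltransferase used by many transcription factors, had 906 reads at 100 d against 597 and 705 at 45 d (log2 fold change 0.47, SE 0.24). NCOA3, a coactivator of steroid hormone receptors, had 973 reads at 100 d against 661 and 750 at 45 d (0.46, SE 0.24). CHD2, mutated in human childhood epilepsies, had 1106 reads at 100 d against 726 and 850 at 45 d (0.49, SE 0.24). These 3 genes had unadjusted p-values of 0.0715 to 0.0876 and an edgeR adjusted p of 1. JMJD1A, a demethylase of histone H3 and the only one with counts in HVC at both ages, had 12 reads at 100 d against 5 and 1 at 45 d.

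The 3 deacetylase genes tested between ages in HVC were at or above the juvenile level in the adult library, and none was called. The adult counts of HDAC11 and HDAC4 are present because of their rank in this comparison. HDAC11 had 134 reads at 100 d against 65 and 92 at 45 d, or 134 against 71.6 and 84.5 scaled reads (log2 fold change 0.78, SE 0.33, unadjusted p = 0.0429, edgeR adjusted p = 1). HDAC4, a class IIa deacetylase with roles in memory in mice (chromosome 7, 1612998 to 1730270), had 149 reads at 100 d against 99 and 88 at 45 d (0.65, SE 0.33). HDAC9, of the same class, was level, with 97 scaled reads at 100 d against 91.4 and 88.1 at 45 d (0.11, SE 0.33).

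**Figure D3:**
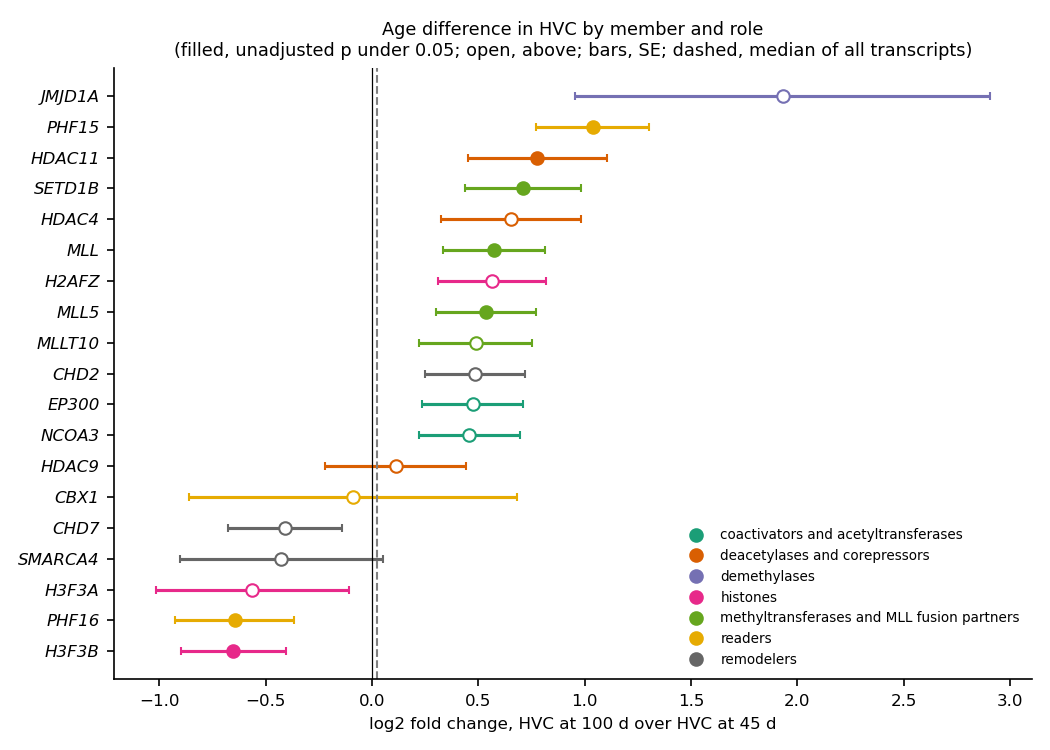
Log2 fold change in HVC of 100 d over 45 d with its SE for 19 members, coloured by role, with filled points at an unadjusted p under 0.05 and the dashed line at the median of all transcripts (0.02). None was called after adjustment. The 4 members among the methyltransferases and MLL fusion partners (yellow-green) lie between 0.49 and 0.71.

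PHF15 and PHF16, which are paralogs, pointed in opposite directions. PHF15 had 364 reads at 100 d against 167 and 186 at 45 d, or 364 against 184 and 171 scaled reads (log2 fold change 1.04, SE 0.27, unadjusted p = 0.00402, edgeR adjusted p = 1). The exact test with the dispersion of the pair gave an adjusted p of 0.636. PHF16 (JADE3), on chromosome 1 from 33640441 to 33670476, had 200 reads at 100 d against 304 and 317 at 45 d (-0.64, SE 0.28, unadjusted p = 0.0485, edgeR adjusted p = 1). PHF13, a reader of methylated histone H3, had 4 reads at 100 d against 2 and 0 at 45 d, a ratio of 3.99 with an exact 95% interval of 0.572 to 44.2.

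The histone variant genes did not move together either. H3F3B and H3F3A encode the same replacement histone H3 protein, which is laid down outside of DNA replication and builds up in mouse neurons with age, and reads from their shared coding sequence may have been split between them. H3F3B (chromosome 18, 8319132 to 8320816) had 525 reads at 100 d against 749 and 898 at 45 d, or 525 against 825 and 824 scaled reads (log2 fold change -0.65, SE 0.25, unadjusted p = 0.029, edgeR adjusted p = 1). H3F3A (chromosome 3, 18752526 to 18757663) had 164 reads at 100 d against 135 and 364 at 45 d (-0.56, SE 0.45). Its sign rested on 1 library, since the log2 ratio was 0.14 without R92L2 and -1.03 without R92L1. H2AFZ (chromosome 4, 20627726 to 20629954), whose product exchanges in and out of nucleosomes at promoters and limits memory consolidation in mice, had 470 reads at 100 d against 302 and 330 at 45 d (0.56, SE 0.25, unadjusted p = 0.0544, edgeR adjusted p = 1).

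The remaining members with counts in HVC at both ages did not pass the test either. CHD7 had 309 scaled reads at 100 d against 378 and 443 at 45 d (log2 fold change -0.41, SE 0.27), SMARCA4 39 against 65 and 40.4 (-0.43, SE 0.48), and CBX1 86 against 158 and 27.5 (-0.09, SE 0.77). Genes of dividing cells, which the ventricular zone could bring, summed to 92 scaled reads at 100 d against 78.2 and 74.4 at 45 d, with 0 of 3 tested called. PCNA, the sliding clamp of DNA replication, went the other way from that sum, with 3 reads at 100 d against 25 and 16 at 45 d (log2 fold change -2.75, SE 0.85, edgeR adjusted p = 1), while MCM6 had 54 reads at 100 d against 26 and 44 at 45 d. Members with positive values in HVC had a median genomic span of 43766 bases, and those with negative values of 9036 bases. Over all transcripts the medians were 16044 and 10516 bases, and the rank correlation of span and fold change was 0.20 across the 19 members and 0.09 across 2150 transcripts, which share the same libraries. The part of gene length in the age values was not tested.

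**Figure D4:**
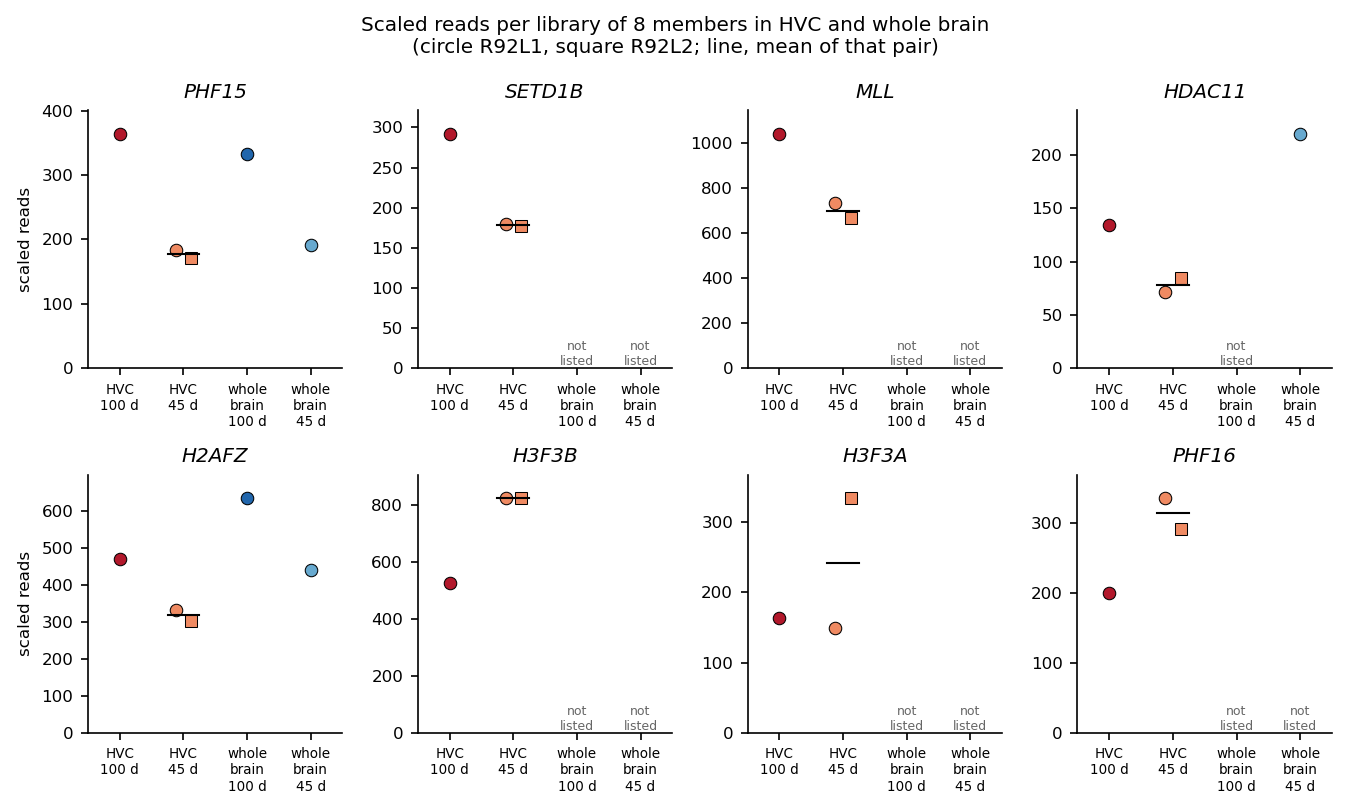
Scaled reads (linear axis, each gene on its own scale) per library for 8 members. In HVC the 100 d value lies above both 45 d values for PHF15, SETD1B, MLL, HDAC11 and H2AFZ, below both for H3F3B and PHF16, and between them for H3F3A; whole brain values are shown where a table lists them.

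Whole brain at 100 d and 45 d was fitted for 7 members, of which 1, SAP18, was called (1 of 7 lower against 0.228% of 1318 transcripts, 0.379% in both directions). SAP18 had 184 reads at 100 d against 708 at 45 d, or 122 against 391 scaled reads (log2 fold change -1.68, SE 0.40, edgeR adjusted p = 0.0832). The call was lost with the listed totals or relative log expression as scaling (edgeR adjusted p = 1 in both), with the exact test (adjusted p = 0.208) and with DESeq2 (adjusted p = 1), each time with a negative sign. The scaled reads of SAP18 in whole brain at 100 d (122) lay between those of HVC at 45 d (121 and 165), so both of its called differences share the high value of the 1 whole brain library at 45 d. HVC at 100 d was not listed for this gene.

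PHF15 and H2AFZ had positive age values in both tissues. In whole brain PHF15 had 501 reads at 100 d against 347 at 45 d, or 333 against 192 scaled reads (log2 fold change 0.79, SE 0.38, unadjusted p = 0.0386, edgeR adjusted p = 1), beside 1.04 in HVC. H2AFZ had 957 reads at 100 d against 796 at 45 d, or 635 against 440 scaled reads (0.53, SE 0.34), beside 0.56 in HVC. The difference between the tissues in the age effect was 0.24 (SE 0.48, unadjusted p = 0.615) for PHF15 and 0.03 (SE 0.45, unadjusted p = 0.939) for H2AFZ. These SEs leave room for tissue differences of well over 0.5 on the log2 scale, so the results do not show equal age effects. Of the 6 members in this test of age by tissue, 0 were called in edgeR, against 0.34% of 1177 transcripts, 0 had an unadjusted p under 0.05, and DESeq2 called 0.

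The other fitted members in whole brain were CHD7 (1344 reads at 100 d against 1457 at 45 d, log2 fold change 0.15, SE 0.34), HDAC9 (305 against 370 reads, -0.01, SE 0.40), CBX1 (21 against 30 reads, -0.25, SE 0.64) and SMARCA4 (19 against 38 reads, -0.73, SE 0.69). None passed the test.

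For 8 members the whole brain libraries were listed without HVC counts at 45 d. Their 45 d whole brain counts are present because of their rank in this same comparison of 1 library with 1. All 8 had fewer scaled reads at 100 d than at 45 d, and their values are descriptions of single genes. JMJD7, a hydroxylase with the fold of the histone demethylases, had 43 reads at 100 d against 113 at 45 d (ratio of scaled reads 0.457). HDAC1, a class I deacetylase of the Sin3 and NuRD complexes, had 54 against 95 reads (0.683). The ratio was 0.715 for H2AFY (122 against 205 reads), which encodes the macro variant of histone H2A, 0.624 for CHD1L (94 against 181 reads) and 0.654 for MLLT1 (37 against 68 reads). Few reads stood behind HDAC10 (3 against 16 reads, ratio 0.225, exact 95% counting interval 0.042 to 0.787), SETD4 (2 against 11 reads, 0.218, interval 0.024 to 1.0) and SETDB1 (1 against 9 reads, 0.133, interval 0.003 to 0.963). The exact test called 0 of the 13 members it could take, against 0.681% of all transcripts. Of the 12 members listed in this table, 10 were lower and 2 higher at 100 d, where 55.4% of all listed transcripts were lower.

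**Figure D5:**
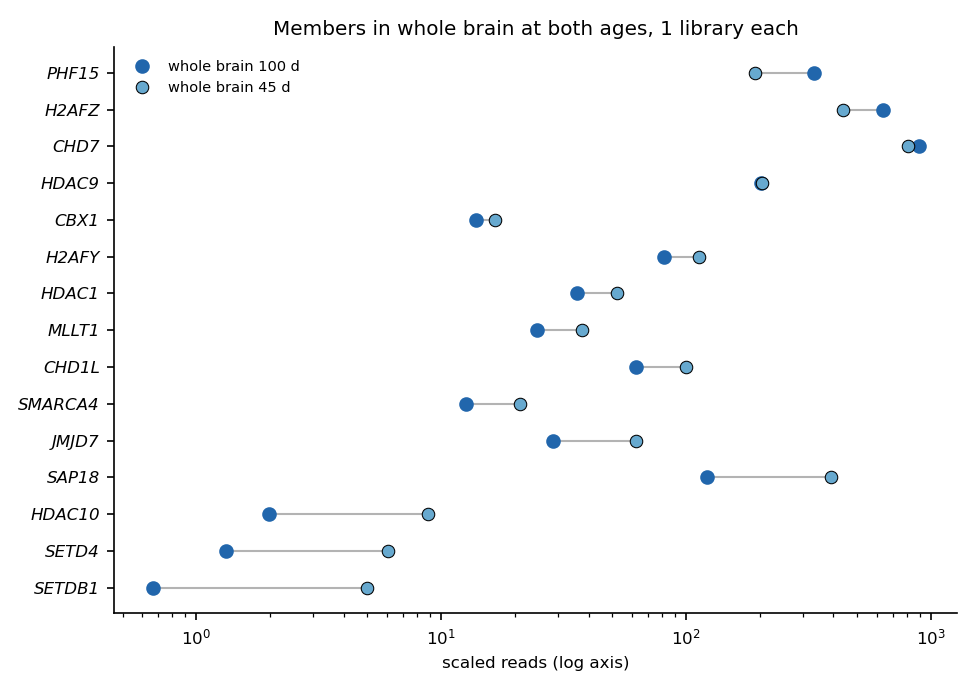
Scaled reads (log axis) in the 1 whole brain library at 100 d (dark) and the 1 at 45 d (light, outlined) for the 15 members with both values. PHF15, H2AFZ and CHD7 have the higher value at 100 d, HDAC9 is level, and SAP18 has the widest gap among members with over 20 reads at either age, 122 against 391.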

How the data were processed

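RNA-Seq libraries of 5 samples (total RNA, NuGEN Ovation kit, Illumina GAIIx) were trimmed, mapped to taeGut1 with ELAND2 and counted per Ensembl transcript by the authors, who tested pairs of groups with edgeR. The 4 deposited tables hold raw read counts, which are whole numbers, and columns of the authors' own comparisons (log2 fold change, p-value, adjusted p-value) for the 1800 transcripts with the smallest p-values. How reads that map to several places or strands were counted is not given in the sources used here. Counts of a library that stand in several tables are identical there.

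Because the listed counts do not sum to the depth of a library, relative library sizes were solved from the authors' log2 fold changes (median misfit 0.003 on the log2 scale), and the number of transcripts tested (11507, 10859, 11258 and 11101) from the ratio of adjusted p-value to p-value. The authors' comparison columns served for nothing else, and their values are not printed. Each comparison was fitted with edgeR 4.0.16 in R 4.3.3 (glmQLFit, glmQLFTest, 1 mean per group, filterByExpr with a minimum count of 10) over all listed transcripts with counts in its libraries, and p-values were adjusted over the number the authors tested (for age by tissue, 11507). Only the 45 d HVC pair repeats a group, so 1 residual degree of freedom gave the spread. The lone samples were assumed to vary like that pair. At 100 d between tissues and for age by tissue the prior degrees of freedom were infinite, and the fitted trend alone then gave a transcript's spread. They were 79.6 between tissues at 45 d and 201 between ages in whole brain, so the trend gave most of the spread there. Between ages in HVC they were 7.47. The SE is the log2 fold change divided by the root of the F statistic. Intervals of ratios are exact, at 95%, and given where a group had 1 to 3 reads.

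Any member may be named. Members called in at least 1 comparison are given with all their reads, uncalled ones with a mean of at least 20 reads with values, and others where their role group has nothing else. HIST1H1A-2, PHF13, HDAC10, SETD4 and SETDB1, which have fewer reads, were named after their values were seen. Members, role groups and gene lists were chosen with earlier results of these data known. RefSeq symbols matched 25 of the 38 members, and the other 13 carry older symbols. Other scalings, no filter, DESeq2 1.42.0, the edgeR exact test, an additive model and each 45 d HVC library left out were tried. All tests were two-sided. Only the quasi-likelihood test was tried on simulated counts, with changes of known size. The share of changed transcripts was set and not taken from the data, and the number of calls depends on it. Each transcript was drawn with the trended dispersion of its fit and no scatter of its own. The shares below are therefore not detection rates of the real data. In the simulated counts the test called 7.83% of 2-fold changes between tissues at 45 d and 3.53% at 100 d. Of 4-fold changes it called 56.1% and 28.8%. Between ages it called 11.6% of 2-fold changes in HVC and 3.06% in whole brain, and for age by tissue 0.826%. The shares of 4-fold changes were 63.6%, 37.3% and 12.1%. A comparison with few or no calls therefore does not show that levels were equal. Figures were made in Python 3.11.15 with matplotlib 3.10.9.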

Additional observations from a re-analysis of the deposited data

How the results depend on the processing

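With the totals of listed reads, relative log expression or TMM (both over the listed transcripts) as library sizes, 0 of the members were called between HVC and whole brain at 45 d (5 in the fit reported) and 0 at 100 d (2), as with DESeq2. Of all transcripts these 3 scalings called 172, 425 and 234 at 45 d, DESeq2 95 and the fit reported 802. At 100 d the numbers were 198, 152 and 97, with 33 for DESeq2 and 331 for the fit reported. TMM kept the 1 call between ages in whole brain, while listed totals, relative log expression, DESeq2 and the exact test left 0. The additive model of tissue and age called 2 members (CHD7 and HDAC9) between tissues, with the same fold changes for both ages by its design. It called 578 of the 1177 transcripts it took with the adjustment for 45 d and 600 with that for 100 d. HDAC11 and SAP18, which lack counts in 1 library each, cannot be taken by it, so it does not test the SAP18 call between ages in whole brain. In that model, leaving out 1 of the 45 d HVC libraries gave 0 to 4 members between tissues at 45 d and 0 to 4 at 100 d, and 0 between ages in whole brain. The scalings moved the median log2 fold change of the members between tissues at 45 d from -0.72 to -0.37 (listed totals) and -0.20 (relative log expression), and turned that at 100 d to 0.37 (listed totals), 0.20 (relative log expression) and 0.17 (TMM). Between ages in whole brain it turned to 0.059 (relative log expression) and 0.007 (TMM). Of all transcripts called between tissues, those with the higher level in HVC made up 40.5% at 45 d, against 68.0% to 84.7% under the other scalings, and 44.1% at 100 d, against 76.3% to 88.9%. No called difference changed sign. PHF15 at 45 d did under all 3 scalings, H2AFZ under relative log expression at 45 d and listed totals at 100 d, and HDAC9 between ages in whole brain under relative log expression and TMM. The causes were not tested. No setting called a member between ages in HVC or for age by tissue. The exact test and the additive model were not run for age by tissue, which they cannot give. No paired analysis was possible because only 1 group has more than 1 library.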

Other observations

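Chromatin genes outside the symbol rule, taken from a separate list of 31 listed genes, were compared between HVC and whole brain. At 100 d edgeR called 2 of 9 lower in HVC (all transcripts, 13.6%) and 0 higher (10.7%), and at 45 d 3 of 11 lower (24.7%) and 0 higher (16.9%). SUV420H1, which adds methyl groups to histone H4, had 35 reads in HVC against 311 in whole brain at 100 d (log2 fold change -2.56, SE 0.51, edgeR adjusted p = 0.000148) and 28 and 40 reads in HVC against 246 in whole brain at 45 d (-2.0, SE 0.39, edgeR adjusted p = 0.000225). The nucleosome assembly protein gene NAP1L1 had 1899 reads in HVC against 6697 in whole brain at 100 d (-1.23, SE 0.35, edgeR adjusted p = 0.0287) and 1659 and 2300 reads in HVC against 6759 in whole brain at 45 d (-0.92, SE 0.31, edgeR adjusted p = 0.0709). DOT1L, the methyltransferase that works with MLLT10, had 114 and 110 reads in HVC against 445 in whole brain at 45 d (-1.12, SE 0.33, edgeR adjusted p = 0.0243). The median of all transcripts was -0.42 at 100 d and -0.69 at 45 d. NAP1L1 at 45 d therefore stood only slightly outside the general offset. Between ages edgeR called 0 of 11 list genes in HVC and 0 of 7 in whole brain, with 0 and 1 of them at an unadjusted p under 0.05, and DESeq2 called 0 in every comparison. Of all transcripts DESeq2 called 33 between tissues at 100 d and 95 at 45 d. The part of cerebellar and myelin RNA in these tissue differences was not tested.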
